A study of Mus musculus with 32 samples.

Results

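The genes described here are the 9 that make up the core of peroxisome proliferator-activated receptor (PPAR) signalling among the 50686 genes of the deposited tables. They are the receptors Ppara, Ppard and Pparg, the dimerisation partners Rxra and Rxrb, the coactivators Ppargc1a and Ppargc1b, the corepressor Ncor1 and the Mediator subunit Med1. They were chosen by name for their roles, not for their values, although earlier results of these data were known when they were chosen. All 9 were above the low-count filter in every fit.

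PPARs are nuclear receptors that bind fatty acids and their derivatives and, as heterodimers with a retinoid X receptor (RXR), switch on genes of fatty acid uptake, binding, oxidation and ketogenesis. PGC-1 coactivators, encoded by Ppargc1a and Ppargc1b, raise the activity of the bound receptors and of other factors of mitochondrial metabolism, MED1 links the receptors to RNA polymerase II, and NCOR1 is the scaffold of a corepressor complex that holds target genes down when no activating ligand is bound. In the intestinal epithelium PPARs are known as sensors of dietary fat, and PPARδ in particular has been linked to the response of stem cells to fatty diets in mice.

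Polyadenylated RNA was measured in sorted cells of the intestinal crypts of C57BL6 mice, in 32 libraries of 8 groups with 4 libraries each. Cpt1a-deficient (KO) mice carried floxed Cpt1a alleles (Cpt1a fl/fl) together with Villin-CreER and Lgr5-GFP-IRES-CreER. The comparison mice (WT) carried both Cre drivers without a floxed allele being named. CPT1A loads long-chain fatty acids onto carnitine for their entry into mitochondria, and it is itself a PPAR target. Each genotype was kept on the diet labelled High Fat (high-fat diet) or on the diet labelled High Fat Control (control diet), and each combination gave Lgr5-eGFP-high cells (stem cells) and Lgr5-eGFP-low cells (progenitors). Both gates took live 7AAD- cells that were CD45-, CD31- and Ter119-, EpCAM+ and CD24low/-. By the labels each group holds 2 females and 2 males. The Villin promoter of Villin-CreER is active in intestinal epithelium, and both drivers were present in all groups. The labels do not say whether the 4 libraries of a group came from separate mice, when recombination was induced or the age, so p-values here measure the spread between these libraries, which may be partly technical.

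The libraries held between 3307711 and 7337425 counts assigned to genes (median 5655066.5). Cpt1a, the check on the genotype labels, was at 18.8 to 30.6 CPM (counts of a gene scaled to the library total) in the 16 KO libraries and at 119 to 347 CPM in the 16 WT libraries, with no overlap in any of the 4 comparisons of genotype (6.76-fold to 10.6-fold lower in KO). Lgr5 was at 282 to 515 CPM in stem cells and 11.9 to 85.7 CPM in progenitors. Defining markers of cell types outside the epithelium were low, with maxima of 0.614 CPM for Ptprc (leukocytes) and 0.979 CPM for Pecam1 (endothelium). The maxima were 0.174 CPM for Col1a1 (stroma) and 3.75 CPM for Hbb-bs (red blood cells). Summed white blood cell markers (10 genes) reached 34.6 CPM and summed red blood cell markers (6 genes) 10.5 CPM. Lyz1, a Paneth cell marker, was at 51.9 to 966 CPM in stem cells and 1111 to 7285 CPM in progenitors. In the bulk RNA of sorted cells, fewer cells of a type and less RNA of a gene per cell cannot be told apart.

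Promoter windows of 250 bases before a transcript start were available in the RefSeq-derived table (build GRCm38.p6) for 8 of the 9 genes, in 13 windows. The windows printed are those of genes the results below turn on: Ppara, the PPAR mRNA with the highest median TPM in both populations, Pparg, with the largest difference between populations, and Ppargc1a, with the smallest adjusted p for diet. Capitals mark the letters searched on both strands: GGGCGG, a GC box of the kind bound by SP factors, GCGCATGCGC, a site of the NRF1 type, AGGTCA, the half-site of nuclear receptors, and TGACGT, the core of a cAMP response element, which the Ppargc1a window holds as its reverse complement.
Ppara promoter, chr15:85735526-85735775, plus strand: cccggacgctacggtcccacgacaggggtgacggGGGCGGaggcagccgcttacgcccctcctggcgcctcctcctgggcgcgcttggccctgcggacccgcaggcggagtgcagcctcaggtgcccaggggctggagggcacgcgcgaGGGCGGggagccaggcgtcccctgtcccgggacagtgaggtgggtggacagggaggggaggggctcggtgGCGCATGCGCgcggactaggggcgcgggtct
Pparg promoter, chr6:115362099-115362348, plus strand: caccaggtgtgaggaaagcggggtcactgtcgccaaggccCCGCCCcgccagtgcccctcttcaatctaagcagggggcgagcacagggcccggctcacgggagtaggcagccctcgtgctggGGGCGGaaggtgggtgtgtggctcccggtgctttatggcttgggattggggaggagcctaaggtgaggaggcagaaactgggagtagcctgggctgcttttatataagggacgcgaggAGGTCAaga
Ppargc1a promoter, chr5:51567726-51567975, minus strand: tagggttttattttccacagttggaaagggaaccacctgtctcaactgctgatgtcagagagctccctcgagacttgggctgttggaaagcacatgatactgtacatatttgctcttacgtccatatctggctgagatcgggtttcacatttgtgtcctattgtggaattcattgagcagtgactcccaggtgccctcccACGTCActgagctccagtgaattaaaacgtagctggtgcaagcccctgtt
GGGCGG stood in 9 of the 13 windows, in 7 of the 8 genes (Med1, Ncor1, Ppara, Ppard, Pparg, Rxra and Rxrb), and in 32.7% of all 32851 windows of the table. Ppargc1a was the gene without it. The TGACGT letters lay 50 bases before the Ppargc1a start, in the only window of these genes that held them, against 6.47% of all windows. GCGCATGCGC lay 31 bases before the Ppara start (0.782% of all windows). AGGTCA stood in 3 windows, of Pparg and Rxra, and in 4607 of the 32851 windows of the table. The full element of PPAR and RXR heterodimers, AGGTCANAGGTCA, which holds the half-site 2 times, was in none of the 13 and in 0.0335% of all windows. A match of letters is a description of these windows and not a measured binding site.

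TPM corrects transcript abundance for the transcript lengths that the estimation assigned, and on that scale the corepressor had the highest level. The size of that lead depended on those lengths. Ncor1 (ENSMUSG00000018501, chr11:62316426-62458541) had a median of 178 TPM over the 32 libraries (range 122 to 266), Rxrb (ENSMUSG00000039656, chr17:34031812-34038399) 41.8 TPM (26.2 to 70.4) and Med1 (ENSMUSG00000018160, chr11:98152154-98193293) 35.2 TPM (24.6 to 47.8). Ppara (ENSMUSG00000022383, chr15:85734983-85802819) followed with 22.2 TPM (9.49 to 37.4). The PGC-1 coactivators lay next and close together, Ppargc1b (ENSMUSG00000033871, chr18:61298136-61400431) at 14.5 TPM (8.36 to 18.1) and Ppargc1a (ENSMUSG00000029167, chr5:51454250-51567726) at 13.4 TPM (5.95 to 26.2). Pparg (ENSMUSG00000000440, chr6:115360951-115490399) was at 10.8 TPM (5.47 to 17.8) and Rxra (ENSMUSG00000015846, chr2:27676440-27762957) at 5.67 TPM (3.18 to 10.4). Ppard (ENSMUSG00000002250, chr17:28232700-28301474) was lowest at 2.20 TPM (0.690 to 5.40), and its deposited counts were 3 to 23 per library. The ranges of neighbours in this order overlapped at every step except between Ncor1 and Rxrb.

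Of the summed TPM of the PPAR genes, Ppara held a median of 64.0% in stem cells (range 42.4% to 81.8%) and 60.8% in progenitors (45.8% to 71.0%). Pparg held 30.0% in stem cells and 33.9% in progenitors, and Ppard 6.25% in stem cells and 7.47% in progenitors. Rxrb supplied 88.5% of the summed Rxra and Rxrb TPM in stem cells and 86.4% in progenitors. For Ncor1 the counts and TPM implied a median length of 1921 bases, 4.70 times shorter than its longest coding transcript (9037 bases). The implied length was 3.62 times shorter for Med1, 2.03 times for Ppara, 2.33 times for Ppard and 1.11 times for Pparg.

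With counts divided by the longest coding transcript instead, the gaps between Ncor1 and Rxrb and between Ppara and Pparg narrowed. Ncor1 had a median of 24.7 CPM per kilobase and Rxrb 23.2 CPM per kilobase. Ppara was at 6.89 and Pparg at 6.35 CPM per kilobase, and Ppard remained lowest at 0.708. On that scale Ppara held a median of 50.3% of the summed PPAR level in stem cells (36.7% to 70.0%) and Pparg 44.7% (22.5% to 58.9%). In progenitors Ppara held 47.2% and Pparg 46.1%. The median lead of Ppara over Pparg was thus smaller with the longest transcripts, and its size rested on the lengths used. The low share of Ppard (5.22% in stem cells and 5.03% in progenitors) held on both scales. So did the lead of Rxrb over Rxra (88.1% in stem cells and 84.9% in progenitors). Ppargc1b moved to rank 3 and Med1 to rank 5. This scale was added after the values had been seen.

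**Figure D1:**
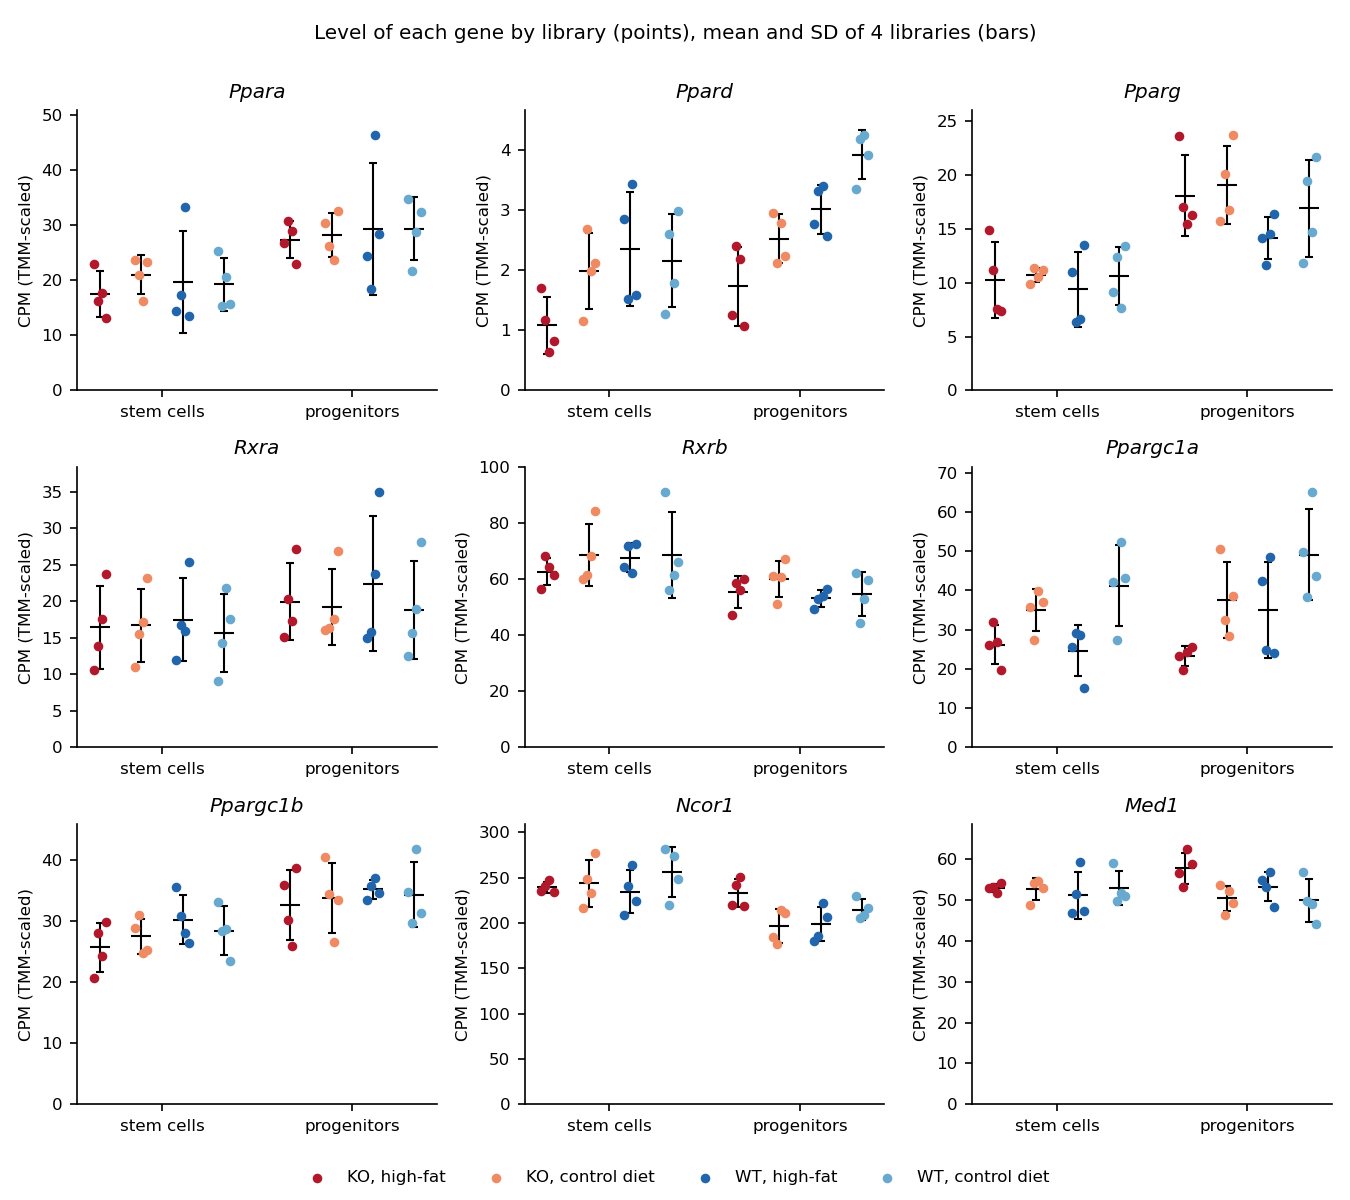
TMM-scaled CPM of the 9 genes in each of the 32 libraries, 1 panel per gene, with the 4 stem cell groups left of the 4 progenitor groups and, within each, KO on the high-fat and control diets before WT on the high-fat and control diets; points are libraries and bars the mean ± SD (n = 4). Ppargc1a is lower on the high-fat than on the control diet in every pair of group means, and Ppard is lowest in KO stem cells on the high-fat diet (mean 1.08 CPM).

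Stem cells against progenitors was the comparison in which most of the genes changed. Over all diets and genotypes (16 libraries against 16), 6 of the 9 passed an adjusted p of 0.05 in edgeR's quasi-likelihood test with Benjamini-Hochberg adjustment, 4 lower and 2 higher in stem cells, in a contrast where 63.5% of 13088 tested genes passed (32.5% higher and 31.0% lower). A share of called members this close to the background is not particular to them. In no member did the 16 libraries of one population stay clear of the 16 of the other, as they did in 10.2% of all genes. All the PPAR receptors were lower in stem cells, and the corepressor and the main RXR partner were higher.

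Pparg, best known as the regulator of fat cell formation and also a receptor of differentiating intestinal epithelium, ranged from 6.33 to 14.9 CPM in stem cells (median 10.8) and from 11.7 to 23.7 CPM in progenitors (median 16.3). Its stem cell mean was 10.3 ± 2.61 CPM against 17.1 ± 3.70 CPM in progenitors (SD, n = 16 each), 1.65-fold lower, with a log2 fold change of -0.72 ± 0.12 (SE; edgeR adjusted p = 4.3e-06). The ranges overlapped, with the highest stem cell libraries above the lowest progenitor libraries. Ppara, the receptor of fasting metabolism and fatty acid oxidation, ranged from 13.1 to 33.3 CPM in stem cells (median 17.5) and from 18.3 to 46.2 CPM in progenitors (median 28.5). It was 1.48-fold lower in stem cells (log2 fold change -0.57 ± 0.13, edgeR adjusted p = 0.00028), again with overlapping libraries. Ppard, the broadly expressed member of the family, was 1.46-fold lower in stem cells (1.90 ± 0.823 CPM against 2.80 ± 0.929 CPM in progenitors, edgeR adjusted p = 0.0052).

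Among the partners, Rxrb was higher in stem cells, with a median of 64.5 CPM (range 56.0 to 91.0) against 56.4 CPM in progenitors (range 44.6 to 67.3; log2 fold change 0.26 ± 0.06, edgeR adjusted p = 0.00073). Rxra had 16.6 ± 4.89 CPM in stem cells and 20.1 ± 6.25 CPM in progenitors and did not pass (log2 fold change -0.27 ± 0.16, edgeR adjusted p = 0.13). It passed only in fits with a further term, given below. Of the coactivators, Ppargc1b fell to 28.0 ± 3.78 CPM in stem cells, against 34.1 ± 4.49 CPM in progenitors (log2 fold change -0.28 ± 0.07, edgeR adjusted p = 0.00099). Ppargc1a averaged 31.7 ± 9.46 CPM in stem cells and 36.2 ± 12.9 CPM in progenitors and did not pass (log2 fold change -0.17 ± 0.12, edgeR adjusted p = 0.20). The corepressor Ncor1 was 1.16-fold higher in stem cells, at 243 ± 21.7 CPM against 211 ± 21.1 CPM in progenitors (edgeR adjusted p = 0.00015). Med1 was within 0.10 log2 units of equality by its 95% interval, at 52.3 ± 3.50 CPM in stem cells and 52.8 ± 4.84 CPM in progenitors.

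The size of these differences did not differ detectably between the diet and genotype conditions: none of the 9 passed a test of the difference between populations across the 4 conditions, where 0.0% of genes passed in edgeR (349 of all genes at an unadjusted p under 0.05, none of them a member), 3 genes in DESeq2 and 0 in limma. The directions depend on the scale for some genes. On the deposited log2 TPM values, tested with limma, the median of all genes lay at 0.27 in stem cells against progenitors, while in the count fit it lay at 0.02. On that scale Pparg (-0.43) and Ppara (-0.32, limma adjusted p = 0.045) stayed lower in stem cells, Rxrb (0.54) and Ncor1 (0.49) stayed higher, Ppard lost its call (-0.13) and Ppargc1b sat at 0.02, below the median of all genes. The populations also differ in marker content. Summed goblet cell markers (10 genes) ranged from 269 to 922 CPM in stem cells and from 9676 to 27183 CPM in progenitors, Paneth cell markers from 182 to 1653 CPM in stem cells and from 2508 to 13534 CPM in progenitors, and enterocyte markers from 1095 to 1776 CPM in stem cells and from 2198 to 5146 CPM in progenitors. Tuft cell markers summed to 4.93 to 19.8 CPM in stem cells and 26.8 to 74.3 CPM in progenitors, and enteroendocrine markers to 5.67 to 74.6 CPM in stem cells and 765 to 1763 CPM in progenitors. Their part in the differences of the receptors was not tested.

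**Figure D2:**
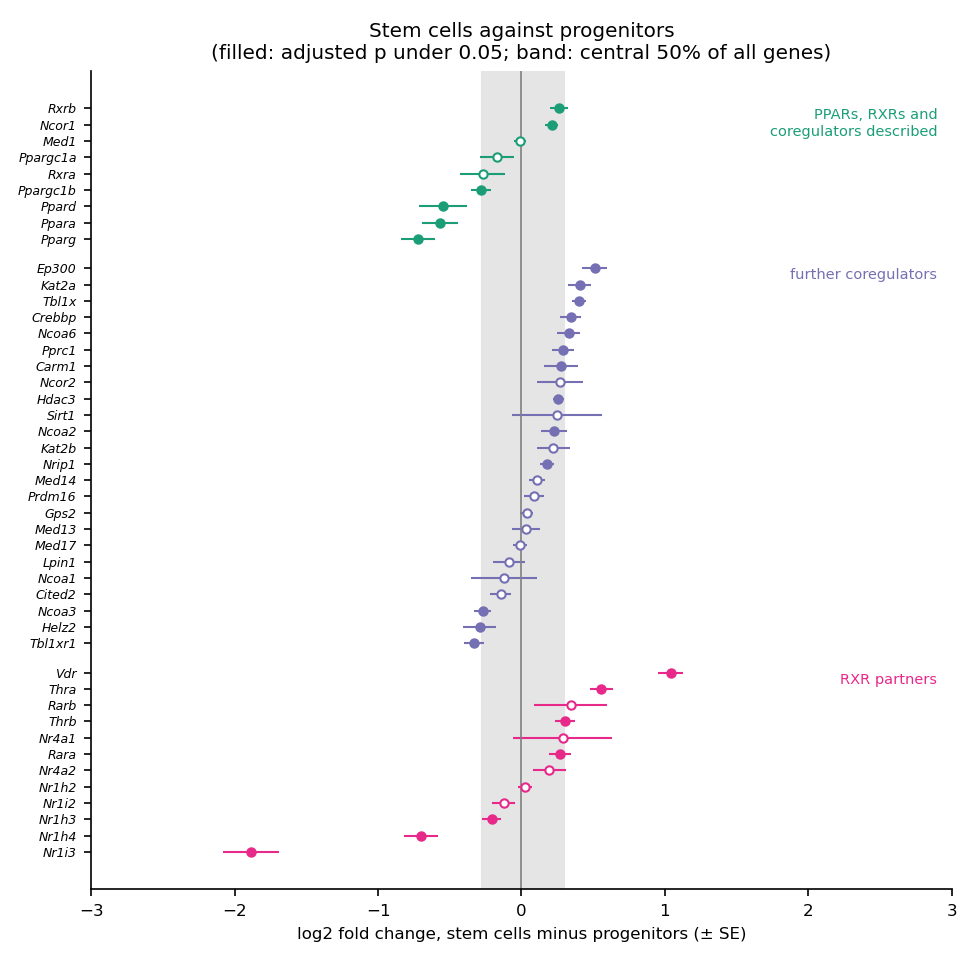
Log2 fold change of stem cells over progenitors with its SE (x axis) for the 9 genes, the further coregulators and the other RXR partner receptors (rows); the grey band holds the central 50% of all tested genes. Pparg (-0.72), Ppara (-0.57) and Ppard (-0.55) lie on the progenitor side and Rxrb (0.26) and Ncor1 (0.21) on the stem cell side.

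None of the 9 genes passed the test in any of the 8 comparisons of diet or genotype between 2 groups. The background was low in each: for the high-fat diet, 0.25% of tested genes passed in WT stem cells, 0.0645% in KO stem cells, 0.0883% in WT progenitors and 0.313% in KO progenitors. For Cpt1a loss, 0.443% passed in stem cells on the high-fat diet, 0.242% in stem cells on the control diet, 0.706% in progenitors on the high-fat diet and 0.257% in progenitors on the control diet. At these shares fewer than 1 called member would match the background, so a count of 0 sets the 9 genes apart in neither direction. Of the 72 values, 8 had an unadjusted p under 0.05 in edgeR, and DESeq2 and limma on log2 TPM also called 0. The share of all genes at an unadjusted p under 0.05 is not given for these comparisons. Such counts, here and below, are therefore descriptions and set no list apart from the background. The smallest edgeR adjusted p was 0.17. The intervals bound what was missed: 64 of the 72 had a 95% interval within 1 log2 unit of 0, and 40 lay within 1.5-fold. On simulated counts for the diet comparison in WT stem cells, the test recovered 68.7% of genes changed 2-fold and 29.9% of those changed 1.5-fold among 12244 genes. With 200 genes changed, 129 were called there, against 31 in the data, which makes the adjusted threshold more lenient in the simulation. The recovered shares may therefore overstate what the test finds in the data, most of all for a gene of few counts. On the CPM scale, libraries of the groups compared did not overlap in 4 of the 72 values, all in progenitors. These were Ppargc1a and Ncor1 for diet in KO, and Ppard for genotype on both diets. On the TPM scale the libraries of Ncor1 and Ppard overlapped in these comparisons and those of Ppargc1a did not. On that scale libraries also stayed apart in stem cells, for Ppargc1a for diet in KO and for Ppard for genotype on the high-fat diet. The share of all genes without overlap on the TPM scale is not given. On the CPM scale, the share of all genes without overlap for the high-fat diet was 6.62% in WT and 3.22% in KO stem cells. It was 4.01% in WT progenitors and 5.71% in KO progenitors. For Cpt1a loss it was 3.55% in stem cells on the high-fat diet, 3.92% in stem cells on the control diet, 7.09% in progenitors on the high-fat diet and 3.2% in progenitors on the control diet. Each group enters a diet and a genotype comparison, so these comparisons share libraries.

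**Figure D3:**
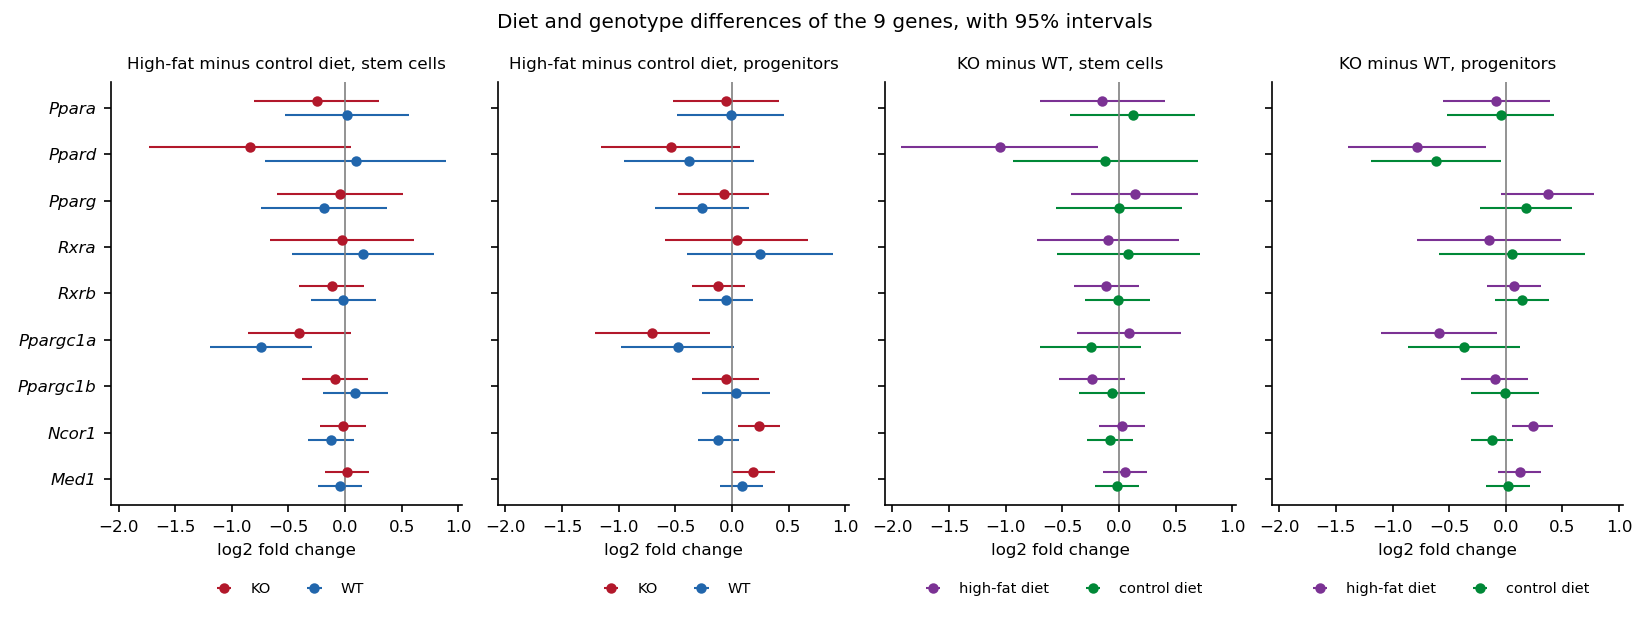
Log2 fold change with its 95% interval (x axis) of each of the 9 genes (rows) in 4 panels: high-fat over control diet, and KO over WT, in stem cells and in progenitors, with KO drawn above WT in the diet panels and the high-fat above the control diet in the genotype panels. The widest intervals are those of Ppard and the narrowest those of Ncor1 and Med1.

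Ppargc1a, whose product PGC-1α is induced in fasting and cold and coactivates PPARα and mitochondrial genes, had the smallest adjusted p. In WT stem cells it had 25.5, 29.1, 28.6 and 15.1 CPM on the high-fat diet, against 42.1, 27.3, 52.3 and 43.3 CPM on the control diet. All but 1 control library lay above the high-fat libraries. The means were 24.6 ± 6.49 CPM on the high-fat diet and 41.2 ± 10.4 CPM on the control diet (SD, n = 4 each), 1.67-fold lower on the high-fat diet, with a log2 fold change of -0.74 ± 0.21 (edgeR adjusted p = 0.17). In KO stem cells it had 26.0, 31.9, 26.8 and 19.8 CPM on the high-fat diet, against 35.8, 27.4, 39.8 and 37.0 CPM on the control diet (log2 fold change -0.40 ± 0.22, edgeR adjusted p = 1.0). Again a single control library, of 27.4 CPM, lay within the high-fat range on the CPM scale. On the TPM scale the KO stem cell libraries did not overlap, at 8.65 to 13.6 TPM on the high-fat diet and 14.5 to 18.1 TPM on the control diet.

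In KO progenitors Ppargc1a had 23.3, 19.8, 24.4 and 25.5 CPM on the high-fat diet, against 50.5, 32.5, 28.4 and 38.6 CPM on the control diet. These libraries did not overlap, as in the 5.71% of all genes given above. The log2 fold change was -0.70 ± 0.24 (1.63-fold lower, edgeR adjusted p = 0.35). In WT progenitors it had 42.5, 24.9, 48.5 and 24.1 CPM on the high-fat diet, against 49.8, 38.2, 65.0 and 43.6 CPM on the control diet (log2 fold change -0.48 ± 0.23, edgeR adjusted p = 0.73). There the high-fat libraries split into a pair within the control range and a pair below it.

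Averaged over both genotypes, a comparison added after these values had been seen, Ppargc1a averaged 25.4 ± 5.40 CPM on the high-fat diet and 38.1 ± 8.33 CPM on the control diet in stem cells (SD, n = 8 each; log2 fold change -0.57 ± 0.15, edgeR adjusted p = 0.10). In progenitors it averaged 29.1 ± 10.4 CPM on the high-fat diet and 43.3 ± 11.7 CPM on the control diet (log2 fold change -0.59 ± 0.17, edgeR adjusted p = 0.14). None of the 9 genes passed in these averaged diet comparisons in edgeR, where 0.959% of genes passed in stem cells and 0.891% in progenitors. At an unadjusted p under 0.05 edgeR held 1 of the 9 in stem cells (Ppargc1a) and 3 in progenitors (Ppargc1a, Ppard and Med1), and limma called 0 in both. DESeq2 called 1 gene, Ppargc1a, in both (adjusted p = 0.021 in stem cells and 0.024 in progenitors). With the run of library numbers as a term, described below with Rxra, edgeR called Ppargc1a in progenitors (-0.60 ± 0.14, adjusted p = 0.0499). Leaving out each of the 16 stem cell libraries in turn gave log2 fold changes of -0.66 to -0.49 and edgeR adjusted p of 0.028 to 0.20. Of these fits 1 passed, without the WT control-diet stem cell library b of 27.3 CPM (-0.66, edgeR adjusted p = 0.028). The 16 such fits in progenitors had an edgeR adjusted p of 0.077 to 0.26, and 0 passed. The diet by genotype interaction of Ppargc1a was 0.34 ± 0.30 in stem cells and -0.22 ± 0.33 in progenitors on the log2 scale, and 0.0% of all genes passed in either interaction in edgeR. Of the 18 interaction values of the 9 genes, 1 (Ncor1 in progenitors) had an unadjusted p under 0.05, and DESeq2 and limma called 0.

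Marker content also differed with diet. Of 5 lists of differentiated cell markers (goblet, Paneth, enteroendocrine, tuft and enterocyte), the median of the summed CPM was higher on the high-fat diet for 5 in WT stem cells, 5 in KO stem cells, 5 in WT progenitors and 4 in KO progenitors. The libraries did not overlap in 3 cases, all in stem cells. Goblet cell markers ranged from 790.5 to 922 CPM in WT stem cells on the high-fat diet and from 269 to 534 CPM on the control diet. Tuft cell markers ranged from 14.4 to 17.1 CPM in WT stem cells on the high-fat diet and from 4.93 to 10.6 CPM on the control diet.

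Enterocyte markers ranged from 1342 to 1642 CPM in KO stem cells on the high-fat diet and from 1131 to 1245 CPM on the control diet. In WT stem cells they ranged from 1097 to 1776 CPM on the high-fat diet and from 1095 to 1420 CPM on the control diet, overlapping. Summed stem cell markers ranged from 14334 to 15557 CPM in WT stem cells on the high-fat diet and from 15232 to 18410 CPM on the control diet. Summed Paneth cell markers ranged from 7937 to 13219 CPM in KO progenitors on the high-fat diet and from 2508 to 8171 CPM on the control diet. The part of these markers in the values of Ppargc1a was not tested.

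Ppargc1b, the second PGC-1 coactivator, had values close to each other on the 2 diets. Ppargc1b had 30.3 ± 4.03 CPM on the high-fat diet and 28.5 ± 3.96 CPM on the control diet in WT stem cells (log2 fold change 0.09 ± 0.14), and its 8 comparisons lay between -0.24 and 0.09 with every 95% interval within -0.53 and 0.38. The ratio of Ppargc1a to Ppargc1b on the TPM scale had a median of 0.657 in WT stem cells on the high-fat diet, with 0 of 4 libraries above 1, and of 1.46 on the control diet, with 3 of 4 above 1. In KO stem cells the medians were 0.999 on the high-fat diet and 1.12 on the control diet. In KO progenitors they were 0.592 on the high-fat diet and 0.903 on the control diet, and in WT progenitors 0.922 on the high-fat diet and 1.35 on the control diet. The median was lower on the high-fat diet in each of these 4 pairs, and no test was made of the ratio. Whether a ratio lies above 1 rests on the assigned lengths: per kilobase of the longest coding transcript the medians were 4.72 CPM for Ppargc1a and 8.37 CPM for Ppargc1b over all libraries.

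Ppard had a lower group mean in KO than in WT in each genotype comparison, close in control-diet stem cells (1.99 against 2.16 CPM). In progenitors on the high-fat diet it had 1.26, 2.41, 2.18 and 1.07 CPM in KO, against 2.76, 3.31, 3.40 and 2.58 CPM in WT. On the control diet it had 2.95, 2.12, 2.79 and 2.23 CPM in KO progenitors, against 3.36, 4.19, 4.24 and 3.92 CPM in WT progenitors. On both diets every KO progenitor library lay below every WT library on the CPM scale. The share of genes without overlap, in one direction or the other, was 7.09% (high-fat diet) and 3.2% (control diet). On the TPM scale the groups overlapped: a KO library at 2.21 TPM lay above a WT library at 2.19 TPM on the high-fat diet. On the control diet a KO library at 2.82 TPM lay above a WT library at 2.32 TPM. In the count fit the log2 fold changes were -0.78 ± 0.29 on the high-fat diet (1.72-fold lower, edgeR adjusted p = 0.30) and -0.62 ± 0.27 on the control diet (1.53-fold lower, edgeR adjusted p = 0.83). Averaged over diets, Ppard had 2.13 ± 0.662 CPM in KO progenitors and 3.47 ± 0.616 CPM in WT progenitors (SD, n = 8 each; log2 fold change -0.70 ± 0.20, edgeR adjusted p = 0.12).

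In stem cells on the high-fat diet Ppard had 1.71, 1.17, 0.634 and 0.818 CPM in KO, against 2.85, 1.52, 3.44 and 1.59 CPM in WT. The KO library of 1.71 CPM lay above the WT libraries of 1.52 and 1.59 CPM, and the log2 fold change was -1.05 ± 0.41 (2.08-fold lower, edgeR adjusted p = 0.60). On the TPM scale these libraries did not overlap, at 0.80 to 1.80 TPM in KO and 2.06 to 3.51 TPM in WT. On the control diet Ppard had 1.16, 2.69, 1.99 and 2.12 CPM in KO stem cells, against 1.28, 2.60, 1.79 and 2.98 CPM in WT stem cells, and the groups overlapped throughout (log2 fold change -0.12 ± 0.39). The interaction in stem cells had a log2 value of -0.93 ± 0.57 (edgeR adjusted p = 1.0), so a difference between the diets was not shown. With 3 to 23 counts per library, the precision of Ppard is the lowest of the 9: its 95% intervals reached from -1.92 to 0.89 over the 8 comparisons, and 3 of the 8 stayed within 1 log2 unit of 0. None of the 9 genes passed in the genotype comparisons averaged over diets, where 0.83% of genes passed in stem cells and 1.21% in progenitors in edgeR. There 0 of the 9 in stem cells and 2 in progenitors (Ppard and Ppargc1a) had an unadjusted p under 0.05, and DESeq2 and limma called 0. Of the 5 lists of differentiated cell markers, the median was higher in KO for 0 in stem cells and 0 in progenitors on the high-fat diet. On the control diet it was higher in KO for 3 in stem cells and 1 in progenitors. The libraries overlapped for every list, and the part of these markers in the values of Ppard was not tested.

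Ncor1, the scaffold of the corepressor complex, was the most abundant of the 9 genes on the TPM scale. In progenitors on the high-fat diet it had 219.9, 242, 250.3 and 219 CPM in KO, against 181, 186, 222 and 206 CPM in WT (log2 fold change 0.24 ± 0.09, 1.18-fold, edgeR adjusted p = 0.29). In KO progenitors on the control diet it had 184, 176, 214 and 211 CPM. On the CPM scale all 4 KO libraries on the high-fat diet therefore lay above all 4 KO libraries on the control diet (log2 fold change 0.24 ± 0.09, edgeR adjusted p = 0.37). On the TPM scale these KO libraries overlapped, with a control-diet library at 168 TPM above a high-fat library at 157 TPM. A WT library on the high-fat diet, of 222 CPM, reached into the KO range. In WT progenitors the diet difference had the opposite sign, -0.12 ± 0.09, with 214.8 ± 11.1 CPM on the control diet. The interaction was 0.36 ± 0.12 on the log2 scale (edgeR adjusted p = 0.97). In stem cells the comparisons of Ncor1 stayed between -0.13 and 0.03. Exons of Ncor1 share 82 bases with Pigl and 1 base with Ttc19 on the opposite strand, and whether the counting used strand is not given in the sources used here.

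The remaining genes stayed close to their own spread. Ppara had 13.6 to 33.3 CPM in WT stem cells on the high-fat diet and 15.3 to 25.4 CPM on the control diet, and its 8 comparisons lay between -0.25 and 0.12, each with a 95% interval within -0.80 and 0.67. The top value of Ppara in each population came from library c of WT on the high-fat diet, at 33.3 CPM in stem cells and 46.2 CPM in progenitors. Without the stem cell library, the difference of KO from WT stem cells on the high-fat diet was 0.21 where it was -0.15 with all libraries, and the diet difference in WT stem cells was -0.35. In progenitors the KO difference on the high-fat diet was 0.22 without the library of 46.2 CPM and -0.08 with it.

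Pparg had its largest genotype difference in progenitors on the high-fat diet, with 23.6, 17.0, 15.5 and 16.3 CPM in KO and 14.2, 11.7, 14.5 and 16.4 CPM in WT. A single WT library reached the KO range (log2 fold change 0.37 ± 0.19, edgeR adjusted p = 0.52). Its 8 comparisons lay between -0.26 and 0.37. Rxrb lay between -0.12 and 0.14 in the 8 comparisons and Med1 between -0.05 and 0.19, and all 8 intervals of each were within 1.5-fold. The widest of these, for Med1, was the diet difference in KO progenitors, at 57.6 ± 3.87 CPM on the high-fat diet and 50.3 ± 3.15 CPM on the control diet (log2 fold change 0.19 ± 0.09, edgeR adjusted p = 0.51).

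Rxra differed between libraries of the same group more than between groups. The column headers number the 32 libraries consecutively, and each run of 8 numbers holds 1 library of every group; what the numbers stand for is not said. Libraries are named a to d by run. In KO stem cells on the high-fat diet Rxra had 10.6, 13.8, 17.5 and 23.7 CPM in libraries a to d, and in WT progenitors on the control diet 12.5, 15.6, 18.9 and 28.1 CPM. Over all groups its median was 12.2 CPM in run 1 (range 9.12 to 16.1), 15.8 CPM in run 2 (13.8 to 20.3), 17.6 CPM in run 3 (15.9 to 23.8) and 26.2 CPM in run 4 (17.5 to 34.9). Rxra was lowest in run 1 in 8 of 8 groups and highest in run 4 in 7 of 8.

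The means of the runs spanned 1.0 log2 unit for Rxra, a span that 325 of 13088 genes (2.48%) matched or exceeded, and 0.109 to 0.382 for the other 8 genes, against a median of 0.235 over all genes. The pattern was noticed in the values and is given without a test. Xist, a transcript of female cells, was at 44.4 to 107 CPM in runs 1 and 2 and at most 0.560 CPM in runs 3 and 4. Sex and run therefore cannot be told apart between these pairs of runs. Within each pair the run medians of Rxra are those given above, and the cause of the differences was not tested. With the run as a term in the fit, added after the values had been seen, the stem cell difference of Rxra passed (log2 fold change -0.27 ± 0.07, edgeR adjusted p = 0.0013). It passed with log2 CPM of Xist as a covariate too (-0.25, edgeR adjusted p = 0.035).

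**Figure D4:**
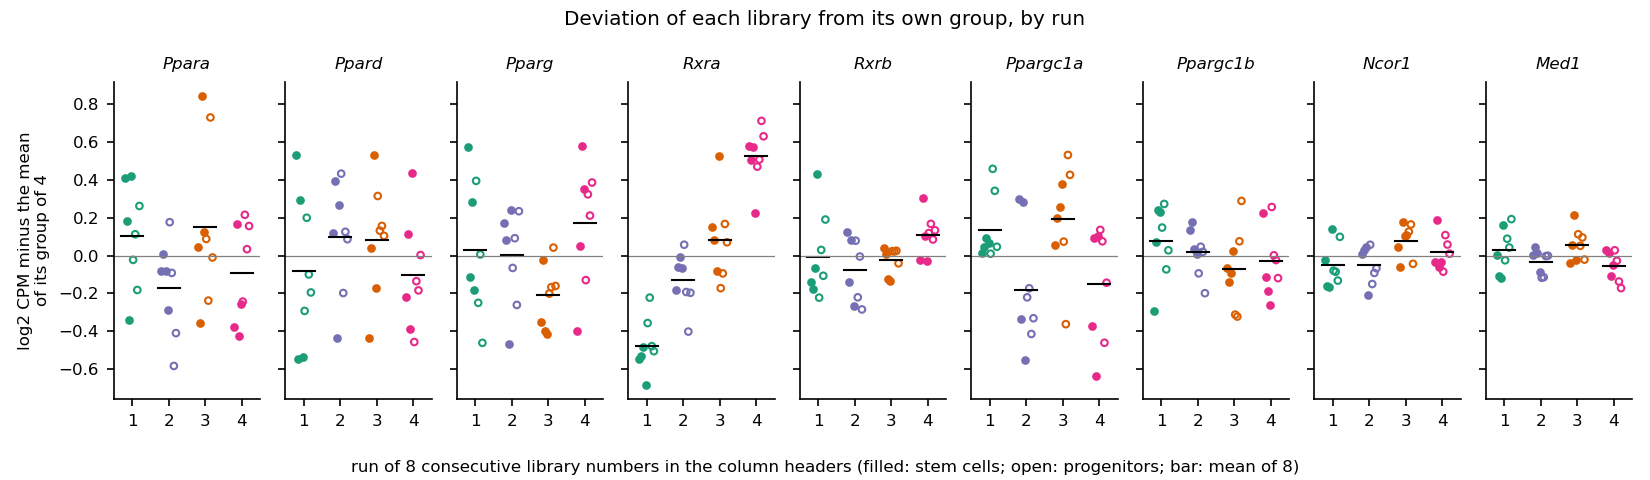
Deviation of log2 CPM from the mean of its own group (y axis) for each library of the 9 genes, by run of library numbers 1 to 4 (x axis); filled points are stem cells and open points progenitors. Rxra is lowest in run 1 in all 8 groups and spans 1.0 log2 unit between run means, while the other 8 genes span 0.109 to 0.382.

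Genes known as targets of these receptors did change while the receptors' own mRNAs did not pass. The list holds 52 genes of fatty acid uptake, binding, oxidation, ketogenesis and lipid storage, 43 of them tested in stem cells and 44 in progenitors. On the high-fat diet 8 rose and 0 fell in WT stem cells (median log2 fold change 0.50, all genes 0.01), where 0.21% of all tested genes rose, and 4 rose and 0 fell in KO stem cells (median 0.50), where 0.0645% rose. In progenitors 7 rose in WT (median 0.54; 0.0883% of all genes) and 13 in KO (median 0.52; 0.241% of all genes), with 0 lower. Named examples are Fabp1, a fatty acid binding protein, at 3.88 ± 0.43 in WT and 3.16 ± 0.39 in KO stem cells on the log2 scale, and Me1, the cytosolic malic enzyme, at 2.35 ± 0.31 in KO stem cells and 2.70 ± 0.33 in KO progenitors. Enterocyte markers, which share 1 gene (Fabp2) with the targets, had a median log2 fold change of 0.95 in WT stem cells, 0.57 in KO stem cells, 0.67 in WT progenitors and 0.11 in KO progenitors on the high-fat diet, with 0 of 10 passing in edgeR in each. In WT stem cells the median was 0.98 for goblet cell markers (2 of 10 rose) and 0.86 for Paneth cell markers (2 of 9 tested rose). The part of these cells in the values of the targets was not tested. In the same comparisons the median of the 9 genes was -0.02 in WT stem cells, -0.09 in KO stem cells, -0.05 in WT progenitors and -0.05 in KO progenitors.

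After Cpt1a loss, 16 targets rose and 1 fell in stem cells on the high-fat diet (median 0.66; 0.338% of all genes rose), and 13 rose and 1 fell on the control diet (median 0.52; 0.218% of all genes rose). In progenitors 21 rose and 1 fell on the high-fat diet (median 0.78; 0.474% of all genes rose) and 17 rose and 1 fell on the control diet (median 0.62; 0.225% of all genes rose). The gene that fell was Cpt1a each time. Hadhb, a subunit of the trifunctional protein of mitochondrial oxidation, rose by 1.04 ± 0.12 in stem cells and by 1.09 ± 0.10 in progenitors on the high-fat diet, and Slc25a20, the carnitine-acylcarnitine carrier, by 1.16 ± 0.13 in progenitors on the high-fat diet. After Cpt1a loss the median of the enterocyte markers was -0.58 in stem cells on the high-fat diet, -0.099 on the control diet, -0.47 in progenitors on the high-fat diet and -0.082 on the control diet. The medians of the 9 genes were -0.10 in stem cells on the high-fat diet, -0.02 on the control diet, -0.08 in progenitors on the high-fat diet and -0.01 on the control diet. None of the targets passed in either interaction in edgeR, DESeq2 or limma, and 8 of the 87 values had an unadjusted p under 0.05 in edgeR. The diet and genotype comparisons share groups, so they are set side by side and no overlap between them is counted. The list was chosen with earlier results in view, and the rise of many of its genes was already known from them.

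**Figure D5:**
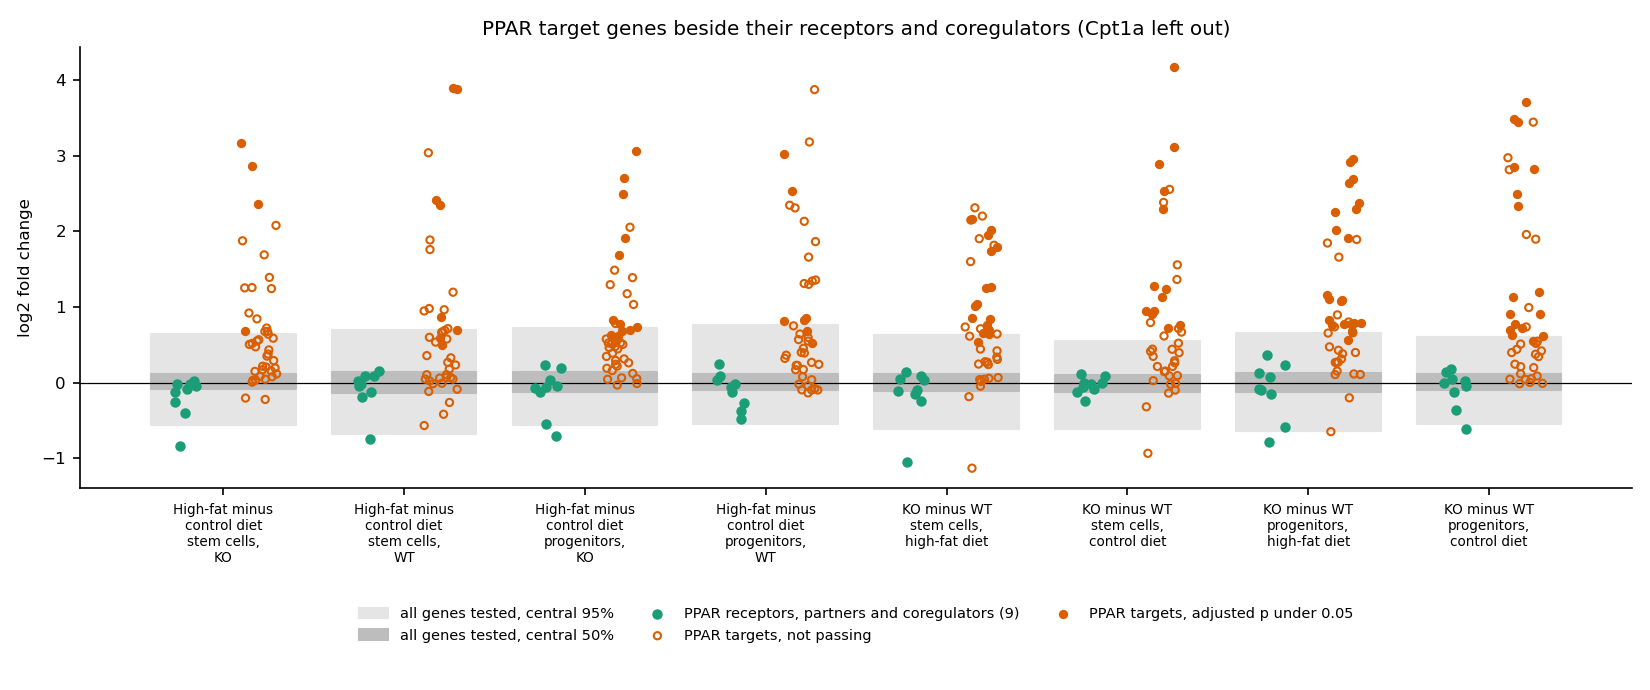
Log2 fold changes of the 9 genes and of the tested PPAR targets without Cpt1a (points) in the 8 diet and genotype comparisons, with the high-fat over the control diet and KO over WT; the grey bands hold the central 50% and 95% of all tested genes. The targets have medians between 0.50 and 0.78 (Cpt1a included in these medians), and those of the 9 genes lie between -0.10 and -0.01.

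Between the populations the targets went both ways, 11 higher and 25 lower in stem cells of 44 tested (81.8% called, against 63.5% of all genes; median -0.17, all genes 0.02). The fatty acid transporters divided: Slc27a1 (1.37 ± 0.08) and Slc27a2 (1.02 ± 0.06) were higher in stem cells, while Slc27a4 (-1.05 ± 0.07), the main intestinal fatty acid transport protein, and Fabp2 (-1.63 ± 0.12), the intestinal fatty acid binding protein, were lower.

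Other coregulators and receptor partners, described from lists of 24, 14 and 11 genes, had no member past the threshold in the 8 diet and genotype comparisons of 2 groups in edgeR. At an unadjusted p under 0.05 stood 5 of 192 values of the further coregulators, 11 of 84 of the RXR partners and 7 of 80 of the PGC-1 partners. limma called 0 and DESeq2 called 1, Nr1h4 on the high-fat diet in WT stem cells. Among the further coregulators the nearest were Lpin1, a lipin that coactivates with PGC-1α, at -0.54 ± 0.21 on the high-fat diet in WT stem cells (edgeR adjusted p = 0.33), and Hdac3, the deacetylase of the NCOR1 complex, at 0.22 ± 0.08 after Cpt1a loss in progenitors on the high-fat diet (edgeR adjusted p = 0.31). Of receptors that pair with RXR, Nr1h4, the bile acid receptor, was at -0.69 ± 0.18 on the high-fat diet in WT stem cells (edgeR adjusted p = 0.13), and Vdr, the vitamin D receptor, at 0.46 ± 0.14 after Cpt1a loss in progenitors on the high-fat diet (edgeR adjusted p = 0.17). Of factors that use PGC-1, Hnf4g was at 0.42 ± 0.11 after Cpt1a loss in stem cells on the high-fat diet (edgeR adjusted p = 0.19). The interaction of Esrra, an orphan receptor partnered by PGC-1α, was -0.68 ± 0.17 in progenitors (edgeR adjusted p = 0.97).

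Between stem cells and progenitors, 10 of the 24 further coregulators were higher and 3 lower (54.2% called; median 0.20), where 63.5% of all genes were called with a median of 0.02. The count is thus below the background and is given as a description. Parts of the NCOR1 complex were among them, Tbl1x at 0.40 ± 0.05 and Hdac3 at 0.26 ± 0.04, as were the acetyltransferases Ep300 at 0.51 ± 0.09 and Kat2a at 0.41 ± 0.08. Of 12 tested RXR partners of the 14 listed, 4 were higher and 3 lower (58.3% called; median 0.23), with Vdr at 1.04 ± 0.09, Thra, a thyroid hormone receptor, at 0.56 ± 0.08, Nr1i3, the constitutive androstane receptor, at -1.89 ± 0.19 and Nr1h4 at -0.70 ± 0.12. Of 10 tested PGC-1 partners of the 11 listed, 5 were higher and 2 lower (70.0% called; median 0.11), again near the 63.5% of all genes. The estrogen-related receptors divided, Esrrg at 1.24 ± 0.08 and Esrra at -0.57 ± 0.08, and so did Hnf4a (0.26 ± 0.04) and Hnf4g (-1.34 ± 0.10), hepatocyte nuclear factors of the intestinal epithelium.

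The means of log2 CPM over the 8 groups spanned at least 1 log2 unit for 3 of the 9 genes, and for these the 9654 genes of sufficient level were searched for the most similar course. For Ppargc1a (span 1.04, highest in WT progenitors on the control diet and lowest in KO progenitors on the high-fat diet) they were Mgam, a brush-border disaccharidase (root-mean-square difference 0.112 log2 units), Slc5a1, the intestinal sodium-glucose transporter (0.127), and Tceal8 (0.142). For Ppard (span 1.53, highest in WT progenitors on the control diet and lowest in KO stem cells on the high-fat diet) they were Slc44a4, of the choline transporter-like family (0.132), Ptprh, a receptor tyrosine phosphatase (0.133), and Dcxr, an L-xylulose reductase (0.143). For Pparg (span 1.04, highest in KO progenitors on the control diet and lowest in WT stem cells on the high-fat diet) they were Adipor2, an adiponectin receptor (0.119), Gm43672 (0.122) and Sec23a, a coat protein of secretory vesicles (0.125). These are descriptions over 8 group means that share their libraries.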

How the data were processed

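The deposited tables held estimated counts per gene (expected counts from RSEM, rounded to whole numbers by the authors) and log2 of TPM plus 1, for 32 libraries. Per the submitters' processing notes, STAR 2.5.3a, RSEM 1.3.0, SAMtools 1.3 and the genome build mm10 were used; settings, strand use and annotation version are not given in the sources used here. That the deposited counts were rounded was seen in the files: 2831 values of 0 had a TPM above 0. Of 50686 genes, 50376 have a symbol. The column headers give the group of a library without its replicate number or sex. Libraries were therefore used as unpaired replicates.

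Counts were fitted with edgeR 4.0.16 in R 4.3.3 (TMM scaling, filterByExpr with a minimum count of 10, robust quasi-likelihood, Benjamini-Hochberg adjusted p under 0.05). All 16 libraries of a population shared a fit for diet and genotype (12409 genes in stem cells and 12460 in progenitors), and all 32 for stem cells against progenitors (13088). A standard error is the log2 fold change divided by the square root of F, and 95% intervals use the moderated degrees of freedom. CPM are TMM-scaled over all libraries. TPM were recovered from the deposited log2 values by subtracting the pseudocount of 1.

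Alternatives were DESeq2 1.42.0, limma 3.58.1 on log2 TPM, RLE scaling, no filter, fits of only the libraries compared, Xist as a covariate, leaving out each library in turn, and, added after the data had been seen, the averaged comparisons, the run of library numbers as a term and CPM per length. The edgeR fit was tested on simulated counts. The 9 genes and all lists were chosen with earlier results of these data known; all 9 are described, and up to 4 passing genes with the smallest adjusted p, or up to 2 where none passed, were named per list and comparison. One result among the targets is not reported here. Genes of similar course needed a mean log2 CPM of at least 3. The deposited tables give library totals of 3307711 to 7337425 counts, and the counts behind a value limit its precision: 3 to 23 for Ppard, 31 to 150 for Pparg, 50 to 157 for Rxra and 638 to 1902 for Ncor1.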

Additional observations from a re-analysis of the deposited data

Results flagged for a closer look

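Of 80 groups of 4 libraries examined for a single library far from the other 3, 2 stood apart, where chance gives about 4. Rxra was at 26.96 CPM in library d of KO progenitors on the control diet, and the other 3 libraries of that group lay between 16.1 and 17.6 CPM. Library d belongs to run 4, in which Rxra was the highest of the 4 libraries in 7 of 8 groups. Cpt1a was at 22.2 CPM in library c of KO progenitors on the high-fat diet, and the other 3 lay between 27.4 and 28.2 CPM, all far below the WT libraries.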

How the results depend on the processing

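No paired analysis was possible because the column headers carry no replicate number, so the pairing of the labels could not be used. The run of library numbers, which holds 1 library of every group, was fitted as a term in its place. It added a call for Rxra in stem cells against progenitors and for Ppargc1a in progenitors averaged over genotypes. In the 8 diet and genotype comparisons of 2 groups, no alternative called any of the 9 genes. RLE scaling changed no call. An uncalled value whose sign changed by less than its standard error is counted as having kept its direction.

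The number of all genes called moved by more than 1.5 times as follows, the reported count standing last in each pair. With DESeq2 it was 180 against 31 (high-fat diet, WT stem cells), 43 against 8 (KO stem cells), 47 against 11 (WT progenitors), 118 against 39 (KO progenitors), 250 against 119 (averaged, stem cells) and 240 against 111 (averaged, progenitors). For Cpt1a loss DESeq2 called 106 against 55 (stem cells, high-fat diet), 60 against 30 (stem cells, control diet), 190 against 88 (progenitors, high-fat diet), 83 against 32 (progenitors, control diet), 166 against 103 (averaged, stem cells) and 273 against 151 (averaged, progenitors), and 3 against 0 across the 4 conditions. For the high-fat diet, limma called 16 in WT and 16 in KO stem cells; no filter gave 56 in WT and 22 in KO stem cells, 18 in WT and 67 in KO progenitors; fits of only the libraries compared gave 2 in WT and 18 in KO stem cells, 4 in WT progenitors, and 25 for Cpt1a loss in stem cells on the high-fat diet; the Xist covariate gave 57 in WT stem cells and 7 in WT progenitors; and the run term gave 100 in WT and 15 in KO stem cells, 180 averaged in stem cells and 0 in WT progenitors. The cause was not tested.

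Without 1 library at a time, the high-fat diet called 5 to 25 genes in WT stem cells, 0 to 14 in KO stem cells, 87 to 134 averaged, 0 to 16 in WT progenitors, 16 to 84 in KO progenitors and 61 to 142 averaged. Cpt1a loss called 30 to 81 in stem cells on the high-fat diet, 14 to 33 on the control diet, 77 to 123 averaged, 35 to 90 in progenitors on the high-fat diet, 17 to 49 on the control diet and 106 to 162 averaged. The interactions called 0 to 0 in stem cells and 0 to 1 in progenitors, the difference across conditions 0 to 0, and stem cells against progenitors 8198 to 8577.

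On log2 TPM with limma these log2 values changed sign: Rxra at 0.30 (high-fat diet, KO stem cells), 0.21 (Cpt1a loss, stem cells, high-fat diet) and 0.25 (interaction, stem cells); Med1 at -0.033 (high-fat diet, KO progenitors), -0.11 (Cpt1a loss, progenitors, high-fat diet), -0.20 (interaction, progenitors) and -0.0090 (Cpt1a loss averaged, progenitors). In stem cells against progenitors, where the median of all genes shifted to 0.27, Rxra was at 0.16, Ppargc1b at 0.023, Ppargc1a at 0.13 and Med1 at 0.24, with Med1 called. Without 1 library at a time, Ppara ranged from -0.35 to 0.18 (high-fat diet, WT stem cells), from -0.31 to 0.21 (Cpt1a loss, stem cells, high-fat diet) and from -0.26 to 0.22 (Cpt1a loss, progenitors, high-fat diet). Rxrb ranged from -0.12 to 0.15 (high-fat diet, WT stem cells) and from -0.13 to 0.15 (Cpt1a loss, stem cells, control diet), with both upper values coming without the WT control-diet stem cell library a of 91.0 CPM. With the run term, Ppargc1a passed in progenitors averaged over genotypes (-0.60 ± 0.14, edgeR adjusted p = 0.0499). The highest group mean of Ncor1 was 1.303 times the lowest on the CPM scale and 1.65 times on the TPM scale. Depth limits Ppard most: with 3 to 23 counts per library, 3 of its 8 intervals stayed within 1 log2 unit of 0.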
